A study of Mus musculus with 6 samples.

Results

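The macrophage marker genes are 39 genes of macrophages and closely related myeloid cells, read on arrays of primary mouse calvarial osteoblasts. They were picked by name, with earlier results of the same arrays in view, because several of them had higher signals in differentiated than in undifferentiated osteoblasts. The differentiated against undifferentiated comparison is therefore given as a description, without a test. Probes were named through RefSeq accessions only, which gave a gene for 69.1% of probes. Of the 39 genes, 37 had a probe named in this way, out of 20659 genes so named. Cd68 and Clec7a were not analysed here. In 35 of the 37, the probe passed the filter on dim probes, which asked for a call of well above background by the scanner software on 2 or more arrays. Spi1 and Cd163 did not pass.

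All 6 arrays came from osteoblasts of CD1 mice, prepared from the calvaria of newborns 2 to 5 days old. Undifferentiated osteoblasts had been grown to confluence in MEM with 10% FBS. Differentiated osteoblasts were then kept for 30 days in differentiation medium, and the cabozantinib group was kept for the same 30 days in that medium with cabozantinib. These times are those of the labels and of the array methods, although elsewhere the study names a shorter time for the profiled cells. Cabozantinib blocks several receptor tyrosine kinases, MET and VEGFR2 among them. There were 2 arrays for each group, and the labels do not say whether the 2 came from separate cultures or animals, so a p-value measures only the spread between these arrays, which may be technical. The cells were released from bone by collagenase and the methods name no sorting step, so what was hybridized was the RNA of a whole culture. In such bulk RNA, a change in the number of macrophages and a change in the RNA of each macrophage cannot be told apart. The 2 cabozantinib arrays were read in another scan (scan 2) than the other 4 (scan 1), so scan and cabozantinib cannot be told apart. The scanner software called between 58.8% and 72.9% of the 43020 spots well above background, and the number of arrays limits the precision of every value.

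Macrophages depend on signals through CSF1R, the receptor for CSF1 and IL-34, and on the transcription factor PU.1, which is encoded by Spi1. Their surface carries Fc receptors for antibody, scavenger receptors and lectins for debris and microbes, and toll-like receptors for microbial products. Several of these receptors signal through the small adaptors FcRgamma and DAP12, encoded by Fcer1g and Tyrobp. Bone holds its own resident macrophages beside osteoblasts, and osteoclasts arise from the same lineage.

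The osteoblast label was checked against osteoblast genes. Levels are given throughout as log2 signal minus the 75th percentile of the same array, and they compare arrays for 1 probe, not 1 gene with another. Values given as before differentiation are those of the undifferentiated arrays, and values given as after it those of the differentiated arrays without cabozantinib, replicate 1 first. Bglap2, a gene of the osteocalcin cluster, stood at -0.20 and -0.48 before differentiation and at 4.98 and 4.44 after it. Both differentiated arrays lay far above both undifferentiated arrays. Alpl, alkaline phosphatase, was well above background on all 6 arrays, with a difference of 0.48 between differentiated and undifferentiated osteoblasts. Ibsp, bone sialoprotein, differed by 2.19 in the same comparison. Of the 12 osteoblast genes tested, 5 were more than 2-fold higher in differentiated osteoblasts and 4 more than 2-fold lower, the lowest being Spp1, osteopontin, with -3.68, which was named after its values were seen. Over all genes tested the shares were 13.1% higher and 12.8% lower. Runx2, the osteoblast transcription factor, was dim, and was called well above background in 2 undifferentiated, 0 differentiated and 1 cabozantinib array. Of these 12 genes, 10 cleared background on all 6 arrays. No osteoblast gene passed the test of cabozantinib against control (adjusted p of at least 0.116, limma). Only 1 of all 23082 genes passed it, so none passing says nothing about this list or those below.

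In differentiated osteoblasts, 32 of the 35 macrophage genes tested were more than 2-fold higher than in undifferentiated osteoblasts, and 1 was more than 2-fold lower. Among all 23082 genes tested, 13.1% were more than 2-fold higher and 12.8% more than 2-fold lower. Since this comparison chose the genes, nothing is read from the contrast between these shares. The median log2 difference of the 35 genes was 3.11, beside 0.10 for all genes tested. The lowest was -1.29 for Lyz2, and Cd5l, Slco2b1 and Clec10a, not well above background before differentiation, have only bounds, which set no order at the top. Both differentiated arrays were above both undifferentiated arrays for 32 genes and below them for 0 genes, against 25.0% and 19.6% of all genes tested. The plot of the marker genes by array shows the 32 genes whose groups did not overlap and the 3 that overlapped, which were Lyz2, Fcgr3 and Timd4.

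**Figure D1:**
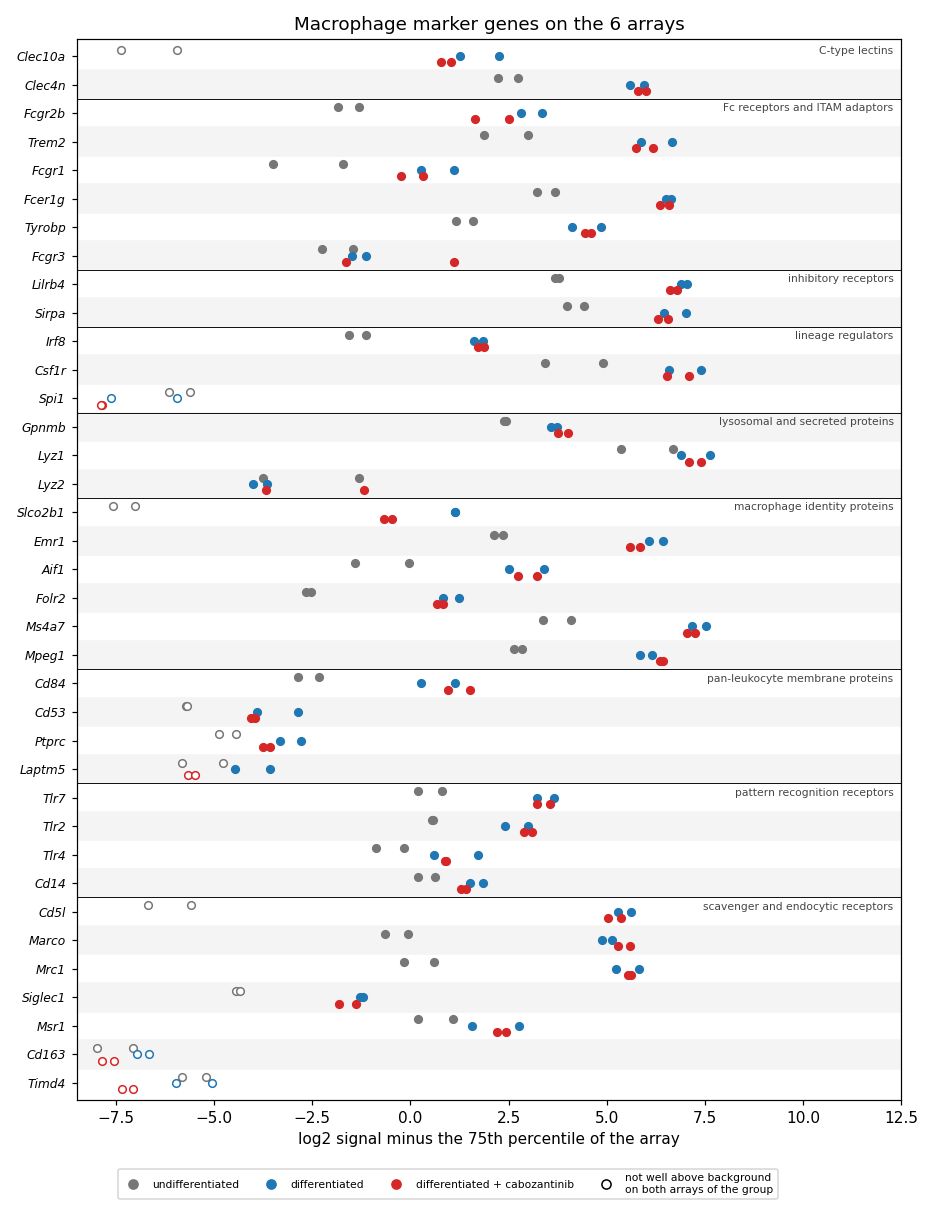
Log2 signal minus the 75th percentile of the array (x axis) for the 37 macrophage genes with a probe, grouped by role, with 1 point for each of the 6 arrays. Grey points are undifferentiated, blue differentiated and red cabozantinib arrays, and open points mark a group in which the probe was not called well above background on each of its arrays. In 32 of the 35 genes tested the blue points lie right of the grey points, and for most genes the red points lie near the blue ones.

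Csf1r encodes the receptor on which macrophage survival and differentiation depend. Its brightest probe read 4.90 and 3.42 before differentiation, 6.59 and 7.39 after it, and 6.53 and 7.08 with cabozantinib. The differentiated and cabozantinib arrays overlapped and both groups lay above the undifferentiated arrays, with a log2 difference of 2.82 for differentiated against undifferentiated osteoblasts. Csf1r has 3 probes, and the other 2 did not follow the brightest. Of these, 1 was well above background on all 6 arrays and differed by 0.28 between differentiated and undifferentiated osteoblasts, and the other was well above background on 2 of the 6 arrays. Irf8, a transcription factor of monocytes and macrophages, had a difference of 3.07. Spi1, which encodes PU.1, read -5.61 and -6.14 before differentiation, -7.61 and -5.94 after it, and -7.84 and -7.87 with cabozantinib. It was well above background on 1 undifferentiated array and on none of the other 5, so no fold is given.

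Emr1, now named Adgre1, encodes an adhesion receptor that is the classic surface marker of mouse macrophages. The brighter of its 2 probes read 2.12 and 2.36 before differentiation, 6.08 and 6.44 after it, and 5.85 and 5.59 with cabozantinib. The 3 groups did not overlap, with the undifferentiated arrays lowest and the control differentiated arrays highest. The fold between differentiated and undifferentiated osteoblasts was 16.2, and the other probe had a smaller log2 difference of 1.91 against 4.02. The other genes of macrophage identity were also higher. Aif1, which encodes the actin-binding protein IBA1, had a log2 difference of 3.69. Ms4a7, a membrane protein of tissue macrophages, had one of 3.61, Folr2, a folate receptor of resident macrophages, 3.62, and Mpeg1, the pore-forming perforin-2, 3.26.

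Slco2b1 encodes an organic anion transporter that marks some tissue macrophages. On the undifferentiated arrays it read -7.02 and -7.56 and was not well above background. It read 1.14 and 1.13 after differentiation and -0.66 and -0.46 with cabozantinib. Its 3 groups did not overlap. The signal in differentiated osteoblasts was at least 113-fold higher than in undifferentiated osteoblasts, where the undifferentiated side is a bound: on each dim array it was set at the probe's own signal or at the lowest signal among probes well above background, whichever was higher. The same bound is meant wherever "at least" is written for a fold. By the second probe of Slco2b1 it was at least 87.3-fold higher.

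Among scavenger and endocytic receptors, Cd5l, a secreted protein of the scavenger receptor family that binds lipids, was not well above background on either undifferentiated array. It was at least 2246-fold higher in differentiated osteoblasts. Cd5l, Slco2b1 and Clec10a passed the filter only through the groups in which they were high. Mrc1, the mannose receptor, was 39.3-fold higher and Marco, a scavenger receptor for bacteria and particles, 41.1-fold higher. Siglec1, the sialic acid-binding receptor of resident macrophages, had a log2 difference of 3.15 and Msr1, scavenger receptor A, one of 1.52. The second probe of Siglec1 differed by -0.03 and was well above background on 1 array of each of these groups, and that of Msr1 was well above background on 1 array in all. Timd4, a receptor for phosphatidylserine on dying cells, differed by -0.01, likewise with 1 array of each group well above background. Cd163, the haemoglobin scavenger receptor, was not well above background on any array.

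The C-type lectin Clec10a, a galactose-binding receptor, read -5.96 and -7.37 before differentiation, not well above background. After differentiation it read 1.27 and 2.26, and with cabozantinib 0.78 and 1.03, with no overlap between groups. Its signal in differentiated osteoblasts was at least 175-fold higher than in undifferentiated osteoblasts. Clec4n, which encodes dectin-2, a receptor for fungal mannans, was 9.69-fold higher.

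The signaling adaptors were well above background on every array. Fcer1g, the FcRgamma chain, read 3.68 and 3.22 before differentiation, 6.50 and 6.63 after it, and 6.35 and 6.58 with cabozantinib. For Tyrobp, the adaptor DAP12, the values were 1.59 and 1.15, then 4.11 and 4.86, and then 4.44 and 4.59 in the same order. In both genes the differentiated and the cabozantinib arrays overlapped and lay above the undifferentiated arrays. Trem2, a lipid receptor that signals through DAP12, had a log2 difference of 3.84 between differentiated and undifferentiated osteoblasts.

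The Fc receptors for IgG differed among themselves. Fcgr2b, the inhibitory receptor, read -1.85 and -1.30 before differentiation, 3.36 and 2.81 after it, and 2.51 and 1.64 with cabozantinib. Its 3 groups did not overlap, with the cabozantinib arrays between the others. Fcgr1, the high-affinity receptor, read -1.72 and -3.51, then 0.27 and 1.10, and then -0.23 and 0.32. For Fcgr3, an activating receptor, the readings were -2.24 and -1.46, then -1.49 and -1.12, and then 1.11 and -1.64. The 3 groups of Fcgr3 overlapped, and 1 of the 2 cabozantinib arrays stood apart from the other 5 arrays. Fcgr2b and Fcgr3 are similar genes, and whether their probes also bind the other transcript was not tested.

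The inhibitory receptors Lilrb4 and Sirpa, which dampen macrophage activation and phagocytosis, had log2 differences of 3.23 and 2.53. The second probe of Lilrb4 differed by 0.22. The toll-like receptors Tlr2, Tlr4 and Tlr7, which sense bacterial lipoproteins, lipopolysaccharide and single-stranded RNA, had differences of 2.14, 1.69 and 2.93. Cd14, the co-receptor for lipopolysaccharide, had one of 1.28.

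Among the membrane proteins common to leukocytes, Ptprc, which encodes CD45, read -4.86 and -4.43 before differentiation, -3.32 and -2.78 after it, and -3.59 and -3.75 with cabozantinib. It was well above background on 1 of the 2 undifferentiated arrays and on all the others, and its 3 groups did not overlap. Cd53, a tetraspanin, Laptm5, a lysosomal membrane protein, and Cd84, a receptor of the SLAM family, had differences of 2.32, 1.26 and 3.29. By the second probe of Laptm5 the signal was at least 3.13-fold higher in differentiated osteoblasts. Cd84 read -2.87 and -2.32 before differentiation, 1.13 and 0.27 after it, and 1.51 and 0.96 with cabozantinib.

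The lysozyme genes Lyz1 and Lyz2, neighbours that encode nearly identical bacteriolytic enzymes, did not run in parallel. Lyz1 read 6.68 and 5.37 before differentiation, 6.90 and 7.64 after it, and 7.10 and 7.40 with cabozantinib. Lyz2 read -3.76 and -1.30, then -4.00 and -3.65, and then -1.18 and -3.69. Only Lyz2, of the 35 genes, was more than 2-fold lower in differentiated osteoblasts, and that difference rested on 1 undifferentiated array, since without undifferentiated replicate 2 the number was 0. Whether either probe also binds the other transcript was not tested. Gpnmb, a lysosomal glycoprotein of lipid-laden macrophages and osteoclasts, had a difference of 1.24.

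The upstream sequences of 7 members are shown because the results turn on them: Cd5l, Mrc1 and Marco as scavenger and endocytic proteins with large differences, Slco2b1 (the first of its 3 windows in the table) for its difference with cabozantinib, Fcer1g as an adaptor well above background on every array, and Lyz1 and Lyz2 as the pair that did not run in parallel. They were chosen after their values were seen. Each is the 250 bases before the annotated start in RefSeq, build GRCm38.p6, read 5′ to 3′ on the strand of the gene. Capitals mark GAGGAA or its reverse complement TTCCTC, the core letters of the sites that PU.1 is known to bind. The windows are chr3:87357631-87357880 (Cd5l, plus strand), chr2:14229164-14229413 (Mrc1, plus strand), chr1:120505025-120505274 (Marco, minus strand), chr7:99711341-99711590 (Slco2b1, minus strand), chr1:171234350-171234599 (Fcer1g, minus strand), chr10:117292869-117293118 (Lyz1, minus strand) and chr10:117282273-117282522 (Lyz2, minus strand).
Cd5l: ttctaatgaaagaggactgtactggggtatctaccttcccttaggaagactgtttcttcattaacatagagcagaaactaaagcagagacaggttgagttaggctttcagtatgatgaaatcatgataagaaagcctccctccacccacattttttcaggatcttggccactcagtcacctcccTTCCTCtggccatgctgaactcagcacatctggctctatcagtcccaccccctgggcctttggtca
Mrc1: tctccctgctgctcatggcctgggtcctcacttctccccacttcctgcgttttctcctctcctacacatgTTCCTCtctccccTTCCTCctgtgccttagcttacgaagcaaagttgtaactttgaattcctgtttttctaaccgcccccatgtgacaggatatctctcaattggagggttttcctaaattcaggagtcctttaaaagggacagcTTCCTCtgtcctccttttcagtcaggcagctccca
Marco: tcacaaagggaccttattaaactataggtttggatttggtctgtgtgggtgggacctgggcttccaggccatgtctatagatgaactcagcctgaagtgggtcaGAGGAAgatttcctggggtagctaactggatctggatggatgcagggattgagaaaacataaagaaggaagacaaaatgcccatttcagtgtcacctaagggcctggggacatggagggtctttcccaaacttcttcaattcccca
Slco2b1: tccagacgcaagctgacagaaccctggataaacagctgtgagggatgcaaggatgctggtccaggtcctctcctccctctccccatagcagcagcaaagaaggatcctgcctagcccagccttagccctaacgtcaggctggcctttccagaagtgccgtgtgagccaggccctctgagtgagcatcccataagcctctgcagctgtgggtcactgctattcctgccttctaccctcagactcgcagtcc
Fcer1g: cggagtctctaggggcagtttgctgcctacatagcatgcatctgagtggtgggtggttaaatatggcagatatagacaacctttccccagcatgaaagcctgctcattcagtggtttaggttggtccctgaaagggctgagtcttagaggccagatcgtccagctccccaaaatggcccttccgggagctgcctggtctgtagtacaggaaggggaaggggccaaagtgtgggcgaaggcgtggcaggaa
Lyz1: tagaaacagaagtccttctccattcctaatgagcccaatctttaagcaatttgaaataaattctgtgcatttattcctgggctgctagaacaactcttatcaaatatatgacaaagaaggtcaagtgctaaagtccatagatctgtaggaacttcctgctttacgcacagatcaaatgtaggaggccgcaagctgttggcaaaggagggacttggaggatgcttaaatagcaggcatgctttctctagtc
Lyz2: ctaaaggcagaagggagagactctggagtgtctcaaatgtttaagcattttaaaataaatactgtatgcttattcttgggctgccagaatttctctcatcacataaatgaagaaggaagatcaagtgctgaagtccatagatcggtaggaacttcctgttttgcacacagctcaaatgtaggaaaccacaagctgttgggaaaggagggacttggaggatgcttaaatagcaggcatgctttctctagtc

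Mrc1 held the motif at 3 places, Cd5l and Marco at 1 each, and Slco2b1, Fcer1g, Lyz1 and Lyz2 at 0. RefSeq windows were matched to 24 of the 37 members. Of their 31 windows, 12 (38.7%) held the motif on either strand, beside 23.3% of all 32851 windows of the same length. These 12 windows belonged to 11 of the 24 genes. Some genes have several windows, and the members were picked with these data in view, so nothing is read from the contrast between the shares. The windows of Lyz1 and Lyz2 aligned with 200 identical bases, 48 mismatches and 4 gap positions. A match of letters is a description of sequence and not a measured binding site.

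For most marker genes the cabozantinib arrays stayed near the control differentiated arrays. Of 35 genes, 0 passed the test of cabozantinib against control (adjusted p under 0.05, limma), and the lowest adjusted p was 0.0832, for Slco2b1. Over all genes tested 0.00433% passed, which is 1 gene, so the count of 0 says nothing about the members. At an unadjusted p under 0.05 the count was 3 of 35, beside 23.2% of all genes. This comparison shares its 2 differentiated arrays with the one that chose the members. The median log2 difference of the 35 genes was -0.20, beside -0.29 for all genes tested. With quantile normalization these medians were -0.0265 and -0.08, and without differentiated replicate 2 that of the members was -0.0439. More than 2-fold higher were 2 members and more than 2-fold lower were 4, against 5.19% and 25.6% of all genes. The 4 lower ones were Slco2b1, Fcgr2b, Laptm5 and Timd4, and the probe of Timd4 was not well above background with cabozantinib, so that a 2-fold difference is not established for it. For 3 members the cabozantinib arrays both exceeded the control arrays, and for 11 both fell short of them, against 13.3% and 45.1% of all genes. The median standard error was 0.52, and the 95% interval of 19 of the 35 differences lay wholly within 1.5 on either side of 0. The 95% intervals had a median half-width of 1.16 in this fit. The counts rested on the fit: without the replicate block 2 members (Slco2b1 and Timd4) and 2877 genes passed. Timd4 had passed the filter on dim probes only through arrays without cabozantinib.

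**Figure D2:**
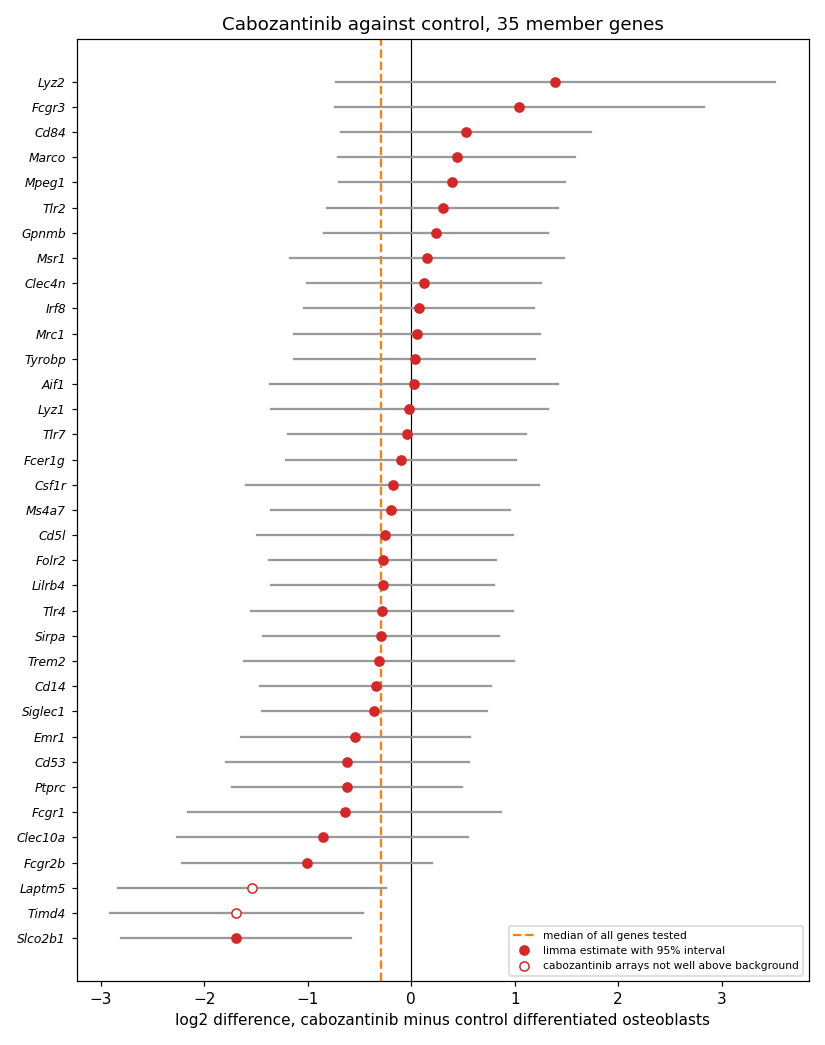
Log2 difference of cabozantinib against control differentiated osteoblasts (x axis) for the 35 macrophage genes tested, with the limma estimate as a point and its 95% interval as a bar. The dashed line is the median of all genes tested, at -0.29, and open points mark genes whose brightest probe was not well above background on the cabozantinib arrays. The intervals of 32 genes include 0, and of the 3 that lie below it only that of Slco2b1 belongs to a probe measured on both sides.

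Slco2b1 had the lowest difference among the genes measured on both sides, meaning well above background on at least 1 array of each group. Its log2 difference was -1.70 (SE 0.50, 95% interval -2.81 to -0.58), a signal 3.24-fold lower with cabozantinib, and both cabozantinib arrays lay below both control arrays. The second probe differed by -2.14. The adjusted p of 0.0832 (limma) missed the threshold and moved from 0.00524 to 1.0 over the alternatives, 0.0319 without the replicate block among them. By the paired t-test of the methods and by an unpaired one, at a change past 2-fold and p under 0.05 unadjusted, Slco2b1 was the 1 member that passed, beside 9.6% and 16.9% of all genes.

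The next 4 lowest were Fcgr2b, Clec10a, Fcgr1 and Ptprc. Fcgr2b differed by -1.01 (95% interval -2.21 to 0.20), a signal 2.01-fold lower, with adjusted p = 0.315 (limma). Clec10a differed by -0.85 (-2.26 to 0.55), Fcgr1 by -0.64 (-2.15 to 0.87) and Ptprc by -0.62 (-1.73 to 0.49). The cabozantinib arrays lay below the control arrays for Fcgr2b, Clec10a and Ptprc and overlapped them for Fcgr1, whose difference turned to 0.08 without differentiated replicate 2. Without that array Clec10a differed by -0.072, and without cabozantinib replicate 2 Fcgr2b differed by -0.57 and Ptprc by -0.30. With quantile normalization, and by the values the authors processed, Ptprc differed by -0.13. Timd4 was not well above background with cabozantinib and was at least 1.04-fold lower there than in control differentiated osteoblasts, with adjusted p = 0.104 (limma). Its probe passed the filter only through the other groups, so nothing is read from that p-value. By its brightest probe, not well above background with cabozantinib, Laptm5 was at least 2.83-fold lower (adjusted p = 0.147, limma). That probe too passed the filter only through the other groups, so nothing is read from its p-value. The probes of Laptm5 disagreed in size. By the second one, well above background on both arrays of each of these groups, it read -4.82 and -3.26 after differentiation and -5.19 and -4.97 with cabozantinib, a Laptm5 signal 2.06-fold lower.

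The 5 highest were Lyz2, Fcgr3, Cd84, Marco and Mpeg1, and none passed the test. Lyz2 differed by 1.39 (95% interval -0.73 to 3.52) and Fcgr3 by 1.04 (-0.74 to 2.83). Both values rested on cabozantinib replicate 1, without which they were -0.56 and -0.62. Cd84 differed by 0.53 (-0.68 to 1.74), Marco by 0.44 (-0.70 to 1.58) and Mpeg1 by 0.39 (-0.70 to 1.48). Without differentiated replicate 2 Cd84 differed by 0.10 and Mpeg1 by 0.21, and without cabozantinib replicate 2 Marco differed by 0.20. Marco read -0.06 and -0.66 before differentiation, 4.87 and 5.14 after it, and 5.29 and 5.60 with cabozantinib. Mpeg1 read 2.64 and 2.83, then 6.16 and 5.85, and then 6.43 and 6.35. For Marco and Mpeg1 the cabozantinib arrays did not overlap the controls and lay higher.

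By its brightest probe Csf1r differed by -0.18 (95% interval -1.60 to 1.24), and by 0.45 without differentiated replicate 2 and 0.26 without cabozantinib replicate 1. The other probe of Csf1r that was well above background on all 6 arrays differed by -1.51, with both cabozantinib arrays below both control arrays. Tyrobp differed by 0.03 (-1.13 to 1.19), and by -0.41 without differentiated replicate 1. Fcer1g differed by -0.10 (-1.21 to 1.01) and Lyz1 by -0.02 (-1.36 to 1.32), and both signs turned with quantile normalization, to 0.08 and 0.12, and with the authors' values and normexp. Emr1 differed by -0.54 (-1.64 to 0.56), and by -0.26 without cabozantinib replicate 2, while its dimmer probe differed by 0.77. The members not yet named in this comparison ran from -0.62 for Cd53 to 0.30 for Tlr2. A value near 0 with an interval of this width does not show that the groups were alike.

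**Figure D3:**
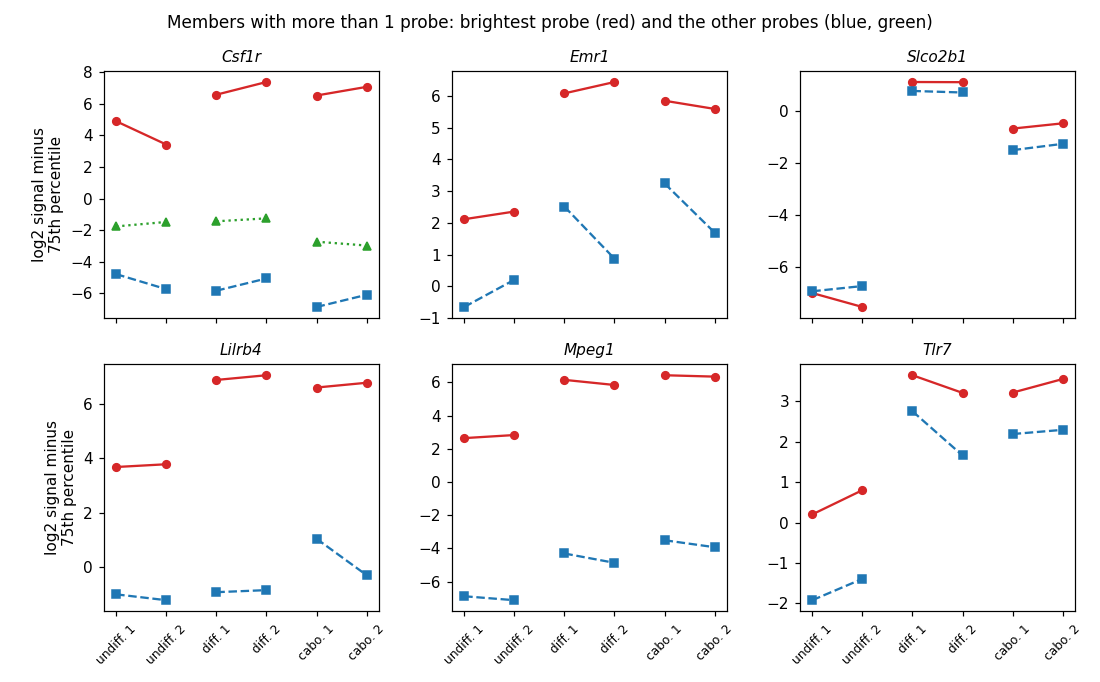
Log2 signal minus the 75th percentile of the array (y axis) on each of the 6 arrays (x axis) for 6 members with more than 1 probe, with the brightest probe in red and the others in blue and green. The 2 probes of Slco2b1 run together, with cabozantinib differences of -1.70 and -2.14, whereas the dimmer probes of Csf1r do not follow the brightest one and the dimmer probe of Lilrb4 differs by 1.26 with cabozantinib against -0.28 for the brighter one.

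Over all genes, the difference with cabozantinib was lower for dim than for bright probes. Genes were divided into 4 classes of equal size by their mean level over the 6 arrays. In the dimmest class, which held Timd4, Laptm5 and Cd53, the median difference over all genes was -1.24. In class 2, which held Slco2b1, Lyz2, Ptprc and Siglec1, it was -0.59. Slco2b1 lay in class 2 through its undifferentiated arrays, since its other 4 arrays read between -0.66 and 1.14. In class 3 it was -0.05, and the 10 members there had a median of -0.28. In the brightest class the median over all genes was -0.13 and that of the 18 members was 0.00. The part of brightness in the lower values of the dim members was not tested.

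With cabozantinib the marker genes also stood well above undifferentiated osteoblasts. Of the 35 genes, 30 were more than 2-fold higher and 1 more than 2-fold lower, beside 9.92% and 30.0% of all genes tested. The lower one was Timd4, not well above background with cabozantinib and at least 1.05-fold lower, and the number was 0 with quantile normalization, the authors' values, normexp and probes well above background on all arrays. The median difference was 2.96, beside -0.38 for all genes. This comparison shares the undifferentiated arrays with the one that chose the members and is a description. The sum of the linear signals of the 35 genes, each relative to the 75th percentile of its array, was 241 and 142 before differentiation, 1120 and 1438 after it, and 1082 and 1250 with cabozantinib. Both later groups lay above the undifferentiated arrays and of the cabozantinib sums 1 lay within and 1 just below the range of the controls.

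Genes beside the members in the same pathways were higher in differentiated osteoblasts as well. Of 18 genes of CSF1R and DAP12 signaling, all tested, 15 were more than 2-fold higher than in undifferentiated osteoblasts and 1 was more than 2-fold lower, with a median difference of 2.57. The lower one was Csf1, the growth factor for CSF1R, with -1.34. Of all genes tested, 13.1% were more than 2-fold higher and 12.8% lower, and these shares apply to each list below. No gene of this list passed the test of cabozantinib against control (adjusted p of at least 0.116, limma). Those with the largest differences there were Il34, the other ligand of CSF1R, with 1.53, the phosphatase gene Ptpn6 with 0.76, the cytokine receptor gene Csf2ra with -0.56 and Hcst, an adaptor related to DAP12, with -0.52.

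Of 13 transcription factors of macrophages tested, 8 were more than 2-fold higher in differentiated osteoblasts and 1 lower, with a median of 1.05. With cabozantinib Cebpa differed by 1.33, Pparg by -1.07 and Cebpb by -0.99. These 3 genes encode factors of myeloid and fat cell differentiation, and no gene of the list passed the test (adjusted p under 0.05, limma).

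Of 21 other macrophage genes tested, 17 were more than 2-fold higher in differentiated osteoblasts and 1 lower, with a median of 2.26. C1qc, a chain of complement C1q, differed by 7.17 and Vsig4, a complement receptor of resident macrophages, by 7.06. Both were named after their values were seen, whereas C1qa, another chain of C1q, was not well above background on any array. With cabozantinib the largest differences were -1.39 for Lair1, 1.13 for Slc11a1, 1.06 for Mertk and 1.05 for Axl, with no adjusted p under 0.134 (limma). Lair1 is an inhibitory collagen receptor, Slc11a1 a phagosomal metal transporter, and Mertk and Axl are receptors for the uptake of dying cells.

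**Figure D4:**
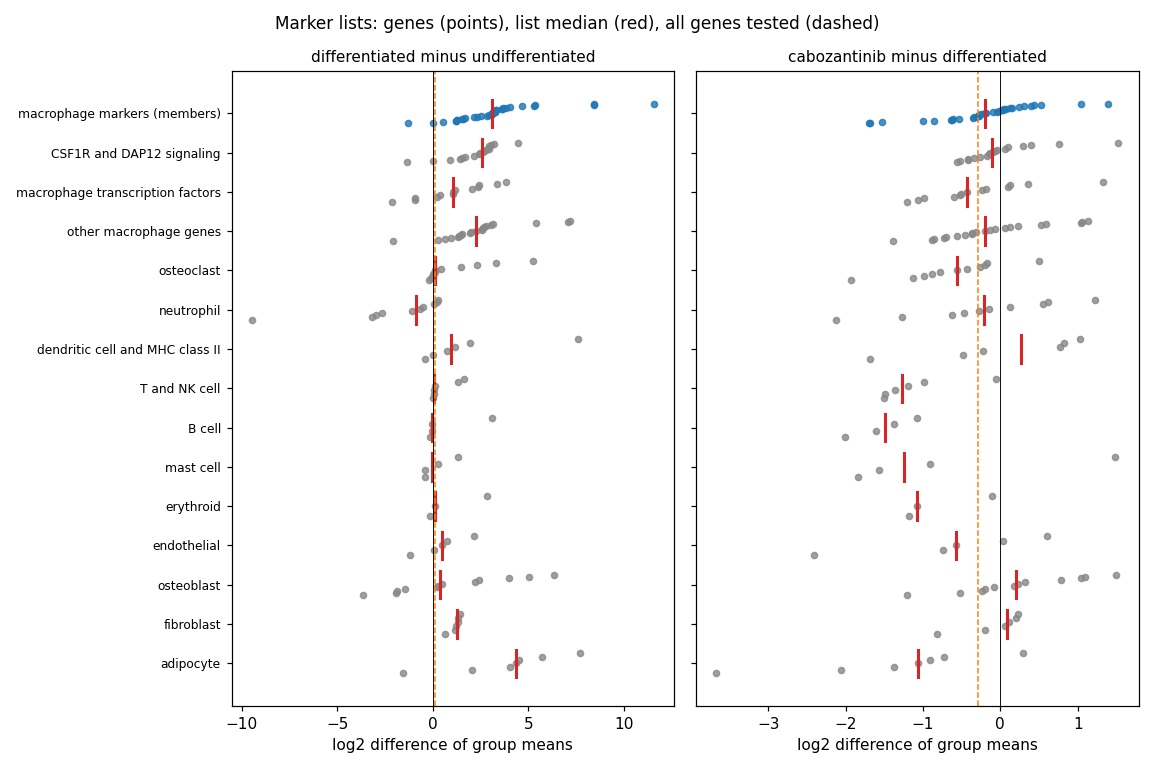
Log2 difference of group means (x axis) for the genes of 15 marker lists (points), with the median of each list as a red bar and that of all genes tested as a dashed line. The left panel shows differentiated minus undifferentiated osteoblasts, where the 35 members have a median of 3.11, and the right panel cabozantinib minus control, where their median is -0.20.

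Lists of other cells that a calvarial culture could hold were read in the same way. Over all genes, 13.1% were more than 2-fold higher in differentiated osteoblasts and 12.8% lower. In the test of cabozantinib against control 1 of 23082 genes passed, so none passing says nothing about a list. The gene called brightest in a list is the one whose probe gave the largest share of the summed signal, which also depends on how well each probe binds. Osteoclast genes were mixed. Of 11 tested, 4 were more than 2-fold higher in differentiated osteoblasts and 0 lower, with a median of 0.12. Atp6v0d2, a proton pump subunit, differed by 5.26 and Acp5, the acid phosphatase TRAP, by 3.33, both named after their values were seen. The summed signal of the list was 53.4 and 32.7 before differentiation, 122 and 173 after it, and 110 and 131 with cabozantinib, and Ctsk was its brightest gene. Calcr, the calcitonin receptor that defines mature osteoclasts, was not well above background on any array. Among genes measured on both sides, the largest differences with cabozantinib were -1.14 for Ocstamp, -0.99 for Car2, -0.88 for Tnfrsf11a and -0.78 for Oscar, and no gene of the list passed the test (adjusted p of at least 0.0676, limma).

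Of 10 neutrophil genes tested, 5 were more than 2-fold lower in differentiated osteoblasts and 0 higher, with a median of -0.88, beside 12.8% of all genes lower and a median of 0.10. S100a9, a calcium-binding protein of neutrophils and monocytes that was named after its values were seen, cleared background before differentiation on each array and afterwards on none of 4. The summed signal of the list was 16.0 and 9.54 before differentiation, 5.28 and 6.69 after it, and 4.25 and 4.74 with cabozantinib. Elane was the brightest gene in differentiated osteoblasts, and Ngp was not well above background on any array. Among genes measured on both sides, the largest differences with cabozantinib were -1.27 for Prtn3, 1.22 for Mmp8, -0.62 for Elane and 0.55 for Mpo, and no gene of the list passed (adjusted p of at least 0.0572, limma).

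Of 6 dendritic cell and MHC class II genes tested, 3 were more than 2-fold higher in differentiated osteoblasts and 0 lower. The summed signal was 1.64 and 0.78, then 15.3 and 15.8, and then 14.3 and 17.5 in the same order of groups. Most of it was Itgax, which encodes CD11c. Xcr1, Cd209a and Ciita were not well above background on any array. With cabozantinib Zbtb46 differed by -1.69, H2-Eb1 by 1.04, H2-Ab1 by 0.83 and Cd74 by 0.77, and none passed (adjusted p of at least 0.0954, limma).

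The lymphocyte, mast cell and erythroid lists were near 0 by median between differentiated and undifferentiated osteoblasts. The medians were 0.09 over 6 T and NK cell genes, -0.03 over 4 B cell genes, -0.06 over 4 mast cell genes and 0.10 over 3 erythroid genes. The numbers more than 2-fold higher were 2, 1, 1 and 1, and 0 genes of these lists were more than 2-fold lower. Over all genes tested the shares were 13.1% and 12.8%. Cd3d, Cd3g and Cd247 of T cells, Cd79b, Ms4a1 and Blk of B cells, Fcer1a and Ms4a2 of mast cells, and Klf1 of erythroid cells were not well above background on any array. The summed signal of the T and NK cell list was 6.06 and 4.90 before differentiation, 7.47 and 9.08 after it, and 4.74 and 5.94 with cabozantinib, with Nkg7 the brightest gene. For B cell genes it was 1.43 and 0.48, then 3.60 and 8.43, and then 2.03 and 3.27, most of it from Cd22. For mast cell and erythroid genes it was at most 1.18 on any array.

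Of T and NK cell genes measured on both sides, Lck differed by -1.49 with cabozantinib, Nkg7 by -1.19, Cd3e by -0.98 and Cd4 by -0.05. Of B cell genes, Pax5 differed by -1.37 and Cd22 by -1.08. Of mast cell genes, Mcpt4 differed by -1.84, Tpsb2 by -1.57 and Cpa3 by 1.49, and of erythroid genes Hba-a1 by -1.08 and Epor by -0.11. No gene of these 4 lists passed the test (adjusted p of at least 0.0671, limma), beside 1 of all 23082 genes.

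Stromal and fat cell genes were also mostly higher in differentiated osteoblasts. Of 6 fibroblast genes, 5 were more than 2-fold higher in differentiated osteoblasts, with summed signals of 278 and 210 before differentiation, 434 and 570 after it, and 492 and 525 with cabozantinib. Lum was the brightest, and Pdgfra, Postn, Col3a1 and Lum differed by -0.82, 0.23, 0.21 and -0.20 with cabozantinib. Of 7 adipocyte genes, 6 were more than 2-fold higher and 1 lower, with sums of 4.60 and 5.10, then 64.0 and 86.7, and then 53.1 and 52.6, and Lpl was the brightest. With cabozantinib Cfd, adipsin, differed by -3.68, Fabp4 by -2.06, Adipoq by -1.37 and Pparg by -1.07, with adjusted p of at least 0.0529 (limma). Of 5 endothelial genes, 1 was higher and 1 lower (13.1% and 12.8% of all genes tested). Their sums were 4.40 and 2.40, then 1.93 and 2.69, and then 1.64 and 1.99, with Egfl7 the brightest and Tek not well above background on any array. With cabozantinib Cdh5 differed by -2.41, Kdr by -0.74, Pecam1 by 0.60 and Vwf by -0.58, and none passed (adjusted p of at least 0.0529, limma). The part of these other cells in the macrophage gene signals was not tested.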

How the data were processed

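RNA of 6 samples was labeled with Cy3 and hybridized to Agilent mouse arrays, 1 colour. Per the file headers, the deposited intensity values are Feature Extraction 11.0.1.1 processed signals, background-subtracted and not scaled between arrays. The authors also deposited a table of log2 values with medians of 7.50 to 7.51 on the 6 arrays, where the steps that made them are not given in the sources used here. No spot was saturated.

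Control and outlier spots were removed, spots of 1 probe were averaged as log2 signals, and each array was scaled to its own 75th percentile. Probes were named through RefSeq accessions. A probe was kept if 2 or more arrays had it well above background (27229 probes, 23082 genes, a probe without a gene counted under its transcript), and a gene was read at its brightest probe. Groups were compared with limma 3.58.1 (R 4.3.3) using all 6 arrays and a block for the replicate number, because the statistics section names a paired test, although the labels do not say what a shared number marks. P-values were adjusted by Benjamini-Hochberg over all genes. The code was tested on simulated data. Columns of sample values left unused numbered 0. Tables and figures used Python 3.11.15, pandas 2.3.3 and matplotlib 3.10.9, and sequences were aligned with Biopython 1.88.

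The members and the lists were chosen with earlier results of these data known. Values on all arrays are given for Csf1r, Emr1, Spi1, Ptprc, Cd68, Tyrobp, Fcer1g, Lyz1 and Lyz2 where measured, and for the 5 highest and 5 lowest members with cabozantinib among those measured on both sides, meaning well above background on at least 1 array of each group. At most 4 genes of each other list were named, those with the largest difference with cabozantinib measured on both sides, and of osteoblast genes Bglap2, Alpl, Ibsp and Runx2. A few genes of these lists are counted but not reported here by name. Alternatives were quantile normalization, the authors' values, normexp with an offset of 50, other filters, probe choices and blocks, the paired t-test of the methods, an unpaired t-test, a variance trend with robust settings and each array left out in turn.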

Additional observations from a re-analysis of the deposited data

How the results depend on the processing

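The number of marker genes passing the test of cabozantinib against control was 0. It was also 0 with averaged probes, where 911 genes (3.95%) passed in the whole set, and with the variance trend, where 111 (0.481%) passed. It was 0 too with quantile normalization, the authors' values, normexp, either other filter, adjustment over all probes and both t-tests. In the settings from quantile normalization to both t-tests, as in the main fit, at most 2 genes passed in the whole set. Their counts of 0 therefore say nothing about the members. The number was 2 without the replicate block and 2 with only the arrays compared (Slco2b1 and Timd4). There Timd4 had passed the filter on dim probes only through arrays without cabozantinib. The number was 1 with the probe of the largest difference (Slco2b1), beside 4.51% of all genes. That setting picks each probe by the difference being tested, so nothing is read from this pass. It ranged from 0 to 3 with 1 array left out: 3 without undifferentiated replicate 1, 2 without undifferentiated replicate 2 and 0 without any of the others. The replicate numbers share only a number in the labels. Deviations of equally numbered arrays correlated at -0.506 (undifferentiated and differentiated), -0.527 (undifferentiated and cabozantinib) and 0.265 (differentiated and cabozantinib). With the undifferentiated numbers exchanged, an alternative chosen after seeing the data like the adjustment over probes, 4 members and 6972 genes (30.2%) passed.

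Over all genes the number passing was 1. After adjustment it was 2 by the paired t-test of the methods and 0 by an unpaired one. It was 0 with quantile normalization, with the authors' values and with no filter, 2 with probes well above background on all 6 arrays, and 111 with the variance trend. It was 911 with probes of a gene averaged, 1042 with the probe of the largest difference, 2877 without the replicate block and 5682 with only the arrays compared. It is likewise not given with 1 array left out, and the cause of the differences between settings was not tested.

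The median difference of the members with cabozantinib was negative under all the alternatives run. It was -0.20 in the report, -0.0265 with quantile normalization and -0.0228 with the authors' values, where the median of all genes was -0.08 with both. It was -0.0934 with normexp, -0.26 with no filter, -0.0211 with probes well above background on all arrays, and -0.10 with either other probe choice. With 1 array left out it ranged from -0.30 to -0.0439. With Timd4 and Laptm5 at the bounds of their brightest probes it was -0.18.

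Signs turned for single genes. Fcer1g was 0.0773 with quantile normalization, 0.0766 with the authors' values and 0.0855 with normexp, and Lyz1 was 0.12, 0.12 and 0.11. Emr1 was 0.12 with the mean of its probes and 0.77 with its other probe. With 1 array left out, Csf1r ranged from -0.81 to 0.45, Fcer1g from -0.30 to 0.10, Fcgr1 from -1.37 to 0.0797, Fcgr3 from -0.62 to 2.71, Lyz1 from -0.64 to 0.60, Lyz2 from -0.56 to 3.35 and Tyrobp from -0.41 to 0.48.

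The counts of members more than 2-fold higher than in undifferentiated osteoblasts ran from 25 to 32 for both later groups, the lowest where only 27 members were tested. The numbers more than 2-fold lower ran from 0 to 1 for differentiated and from 0 to 2 for cabozantinib osteoblasts. A scan term could not be fitted, since each cabozantinib array was in scan 2 and no other array was.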
